A study of Mus musculus with 6 samples.

Results

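The genes described here encode the respiratory chain and the ATP synthase, the machinery of the mitochondrial inner membrane that turns the oxidation of NADH and succinate into ATP. They were chosen by name: every gene whose single annotated symbol begins with Nduf, Sdh, Uqcr, Atp5 or Cox and a digit, or is Cyc1 or Cycs, each represented by whichever of its probe sets had the highest average level. This gave 104 of 18193 genes with such a probe set, namely 44 of complex I, 8 of complex II, 10 of complex III with cytochrome c, 25 of complex IV and 17 of complex V. By role, 84 were subunits or cytochrome c and 20 were assembly factors, which build a complex without staying in it.

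RNA levels were measured in stria vascularis, the potassium-secreting epithelium of the cochlear lateral wall, of mice with a conditional knock-out of Esrrb (Errb or Nr3b2 in the labels), which encodes estrogen-related receptor beta, an orphan nuclear receptor, and of wild-type mice. Each of the 6 samples, 3 mutant and 3 wild type, was RNA from a pool of 10 mice on 1 Affymetrix array. The sources used here do not give the deleted exons, the Cre line, the strain or any treatment, and they state an age, postnatal day 3 to 5, only for the pool of wild-type replicate 1. The design text calls the pooled tissue inner ear, whereas the sample labels call it stria vascularis. Values are log2 expression levels, and differences are mutant minus wild type in same-numbered pairs, given as the mean ± SD of the 3 pairs (n = 3). P-values are from limma with the pair as a block, two-sided and adjusted by the Benjamini-Hochberg method over 45037 probe sets, with 0.05 as the threshold. Nothing in the labels says that the pools are independent beyond being separate samples. These p-values therefore measure only the spread of the pair differences among these 6 arrays.

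Complex I (NADH dehydrogenase) and complex II (succinate dehydrogenase) pass electrons to coenzyme Q, complex III hands them to cytochrome c, and complex IV (cytochrome c oxidase) delivers them to oxygen. Complexes I, III and IV pump protons as they do so, and complex V, the ATP synthase, lets the protons back to make ATP. The marginal cells of the stria are rich in mitochondria and spend much ATP on sodium pumping, and the estrogen-related receptors are known, with their coactivators of the PGC-1 family, as regulators of respiratory chain genes in heart, muscle and other oxidative tissues.

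Arrays differed more by pair than by genotype. Array medians were 6.08, 6.94 and 6.38 in mutant replicates 1 to 3 and 6.07, 6.95 and 6.42 in wild-type replicates 1 to 3. In pair 1, 34.2% of probe sets had exactly equal values on both arrays, against 2.63% and 3.10% in pairs 2 and 3. Pair 1 also had a wide gap of the Gapdh control signal at the 3' end over that at the 5' end (log2). It was 2.57 in the mutant and 2.28 in wild type. In pair 2 the gap was 0.16 in the mutant and 0.21 in wild type, and in pair 3 it was 0.51 and -0.045. The mutant thus had the wider gap in pairs 1 and 3, and its part in the differences of the members was not tested. The best expressed probe set of the targeted gene Esrrb differed by -0.072 (limma adjusted p = 0.856), and its place relative to the deletion is not given, so it checks nothing about the labels. Kcne1, the potassium channel subunit that defines marginal cells, was at 5.51, 5.95 and 4.70 in the mutant and 10.03, 9.92 and 9.16 in wild type.

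Respiratory chain and ATP synthase genes were slightly lower in the mutant as a group, without any single one passing the test. The mean difference was below 0 for 99 of the 104, against 48.7% of all genes. In all 3 pairs 56 of 104 (53.8%) were lower and 0 were higher, against 9.03% and 12.9% of all genes. The median difference was -0.12, a change of -8.14%, against 0.0036 over all genes.

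No member passed the test. In the paired fit 42 of 45037 probe sets (0.0933%) and 27 of 18193 genes (0.148%) passed, and in the unpaired fit 1 gene (0.0055%) passed. At an unadjusted p under 0.05 the paired limma fit held 19 members lower and 0 higher, against 3.31% and 4.04% of all genes, and the unpaired fit held 1, lower. The groups overlapped on the arrays for all members except Cox7a1, which was lower without overlap. Over all genes, 0.385% were lower and 0.682% higher without overlap.

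The counts were similar among well expressed genes. Among genes with a mean level of at least 9, 47 of 80 members were lower in all 3 pairs and 0 higher, against 12.2% and 20.5% of all 3601 genes at that level. The median of these members was -0.13, against 0.033 for all such genes. A gene with exactly equal values in pair 1 could not count as lower or higher in every pair. This held for 9 of 104 members and for 5841 of all 18193 genes. At a mean level of at least 9 it held for 7 of 80 members and 512 of 3601 genes. Such ties therefore lowered the shares of all genes more than those of the members.

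The 3 pairs contributed unequally. Over all members the pair medians were -0.043, -0.075 and -0.22, and 72, 78 and 95 members were lower in the mutant of pairs 1, 2 and 3. By their median the differences were largest in pair 3, whereas those of Sdhb, Sdhc, Sdhd, Atp5b and Ndufs3 were largest in pair 1. Without pair 3 the median was -0.072. In both remaining pairs 59 members were lower and 9 higher, against 17.1% of all genes that were lower.

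**Figure D1:**
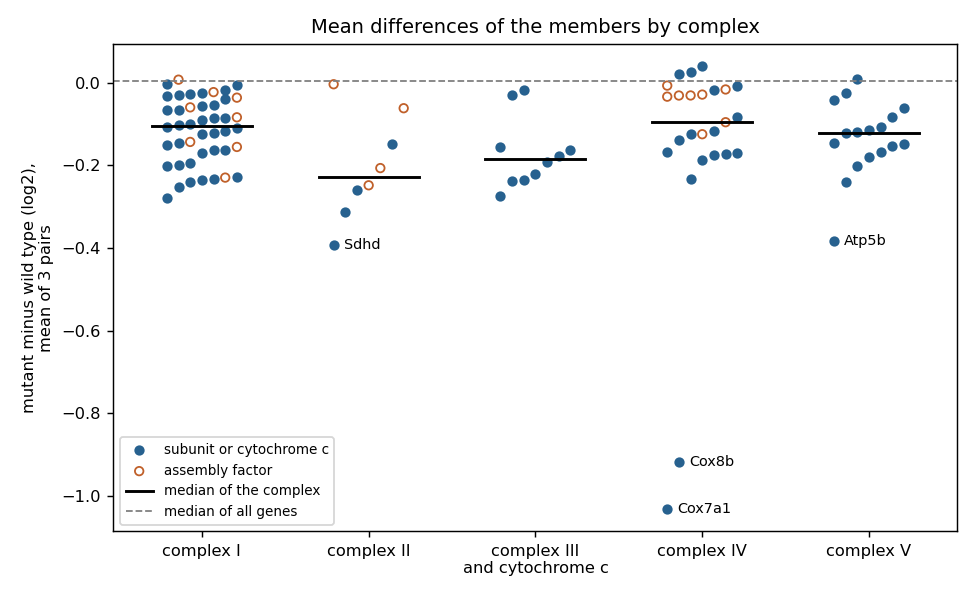
Mean difference over the 3 pairs (mutant minus wild type, log2, vertical axis) of each of the 104 members, by complex, with assembly factors as open circles, the median of each complex as a bar and the median of all genes as a dashed line. Nearly all points lie below 0, and Cox7a1 and Cox8b lie far below the rest.

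**Figure D2:**
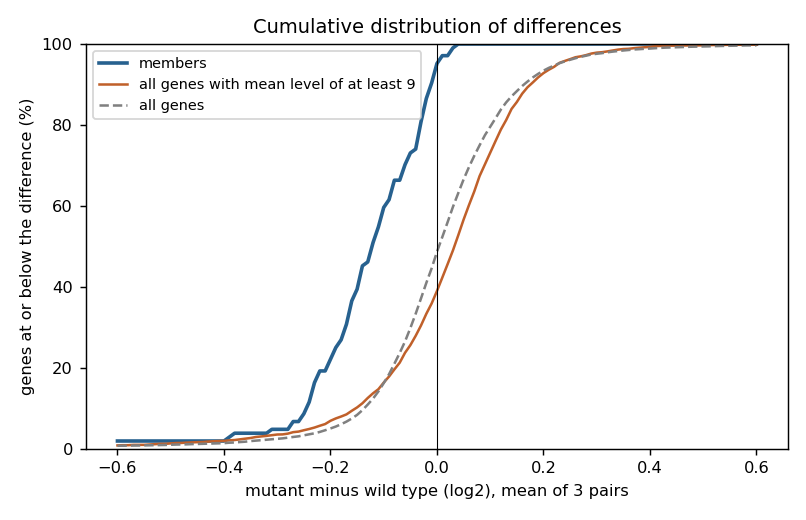
Percent of genes (vertical axis) with a mean difference at or below the value on the horizontal axis (mutant minus wild type, log2). At a difference of 0 the curve of the members stands at 95.2%, the curve of genes with a mean level of at least 9 at 39.0% and the curve of all genes at 48.7%.

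The promoters of the members were searched for sites of factors known to act on respiratory chain genes, which the choice by name did not use. Promoter windows of 300 bases, from 250 before to 50 after the start site, were found in RefSeq (GRCm38.p6) for 85 of the 104 members and searched on both strands. The site of nuclear respiratory factor 1 (GCGCA, any base, then GCGC), an activator of respiratory chain genes, was in 19 members (22.4%), against 8.61% of 14452 measured genes and 5.19% of all 27025 genes with a window. The ETS core (CCGGAAG), bound by the activator GABPA among others, was in 26 members (30.6%), against 15% and 9.93%. The response element of the estrogen-related receptors (TNAAGGTCA) was in 3 members (3.53%), against 1.2% and 1.43%. This element holds the nuclear receptor half-site (AGGTCA), which alone was in 17 members (20%), against 16.5% and 18.1%. Each site was thus in a minority of the members, and the shares were not tested against each other. A match shows that the letters are there, not that a factor binds.

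The 3 members with the receptor's element were Sdhd, Atp5g3 and Ndufb4, and their differences ranged from -0.39 to -0.12. Their median was -0.15, and that of the other members with a window was -0.12. The Ndufb4 probe set was dim, with a mean level of 4.54, at the 15.6 percentile of all probe sets. Brighter Ndufb4 probe sets, left out because they carry further symbols, differed by -0.14 and -0.19. The sites of Atp5g3 and Ndufb4 lie before the start site and are shown with 20 bases on each side, the element in capitals, 5′ to 3′ on the strand of the gene. That of Sdhd lies 36 to 44 bases after the start site.
Atp5g3 (chr2:73911350-73911398, minus strand): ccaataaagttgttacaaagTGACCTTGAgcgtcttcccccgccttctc
Ndufb4 (chr16:37654397-37654445, minus strand): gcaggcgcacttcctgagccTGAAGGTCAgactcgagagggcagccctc
Sdhd (chr9:50603805-50603813, minus strand): TGACCTTGA

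For each complex, and for the member with the smallest p among those with a window, the 150 bases before the start site are shown on the strand of the gene, with any of the 3 sites (that of nuclear respiratory factor 1, the ETS core or the receptor's element) in capitals. Sdhd, which had the largest difference in complex II, holds the first at -79 and the second at -46, and Uqcr11 of complex III the ETS core at -66. Ndufb10, Cox7a1 and Atp5b, from complexes I, IV and V, hold none of these sites in the bases shown.
Ndufb10 (chr17:24724424-24724573, minus strand): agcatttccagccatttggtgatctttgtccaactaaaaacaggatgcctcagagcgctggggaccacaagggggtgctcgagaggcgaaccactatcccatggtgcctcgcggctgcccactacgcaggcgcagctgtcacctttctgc
Sdhd (chr9:50603850-50603999, minus strand): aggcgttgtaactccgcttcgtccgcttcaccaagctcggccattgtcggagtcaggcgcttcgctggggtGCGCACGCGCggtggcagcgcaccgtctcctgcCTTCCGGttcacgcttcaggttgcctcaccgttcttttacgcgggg
Uqcr11 (chr10:80406822-80406971, minus strand): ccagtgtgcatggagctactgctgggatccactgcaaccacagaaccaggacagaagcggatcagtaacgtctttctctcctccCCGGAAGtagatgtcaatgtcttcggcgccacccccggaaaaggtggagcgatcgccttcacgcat
Cox7a1 (chr7:30184021-30184170, plus strand): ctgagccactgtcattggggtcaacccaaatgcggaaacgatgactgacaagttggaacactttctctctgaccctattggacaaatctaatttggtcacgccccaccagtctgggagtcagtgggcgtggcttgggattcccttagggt
Atp5b (chr10:128083157-128083306, plus strand): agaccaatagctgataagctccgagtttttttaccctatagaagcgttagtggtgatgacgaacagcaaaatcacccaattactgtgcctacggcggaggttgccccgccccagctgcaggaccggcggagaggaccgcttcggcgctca

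Complex I genes were lower by a small amount. Of 44 members, 43 had a mean difference below 0, 23 were lower in all 3 pairs and 0 were higher, with a median of -0.11. The pair medians were -0.044, -0.051 and -0.20, so pair 3 stood apart, and the median without it was -0.050. The 6 measured core subunits carry the flavin and the iron-sulfur clusters of electron transfer. At the probe sets used they were lower in all 3 pairs, with a median of -0.17. The 30 accessory subunits had a median of -0.11, with 14 lower in all 3 pairs.

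Ndufs1, the largest subunit of the core, was at 8.88, 9.41 and 9.14 in the mutant and 9.12, 9.63 and 9.39 in wild type. Every pair gave nearly the same difference although the groups overlapped (-0.23 ± 0.016, limma adjusted p = 0.516, 95% interval -0.40 to -0.071). Ndufs3 (-0.28 ± 0.22) and Ndufv2, which carries an iron-sulfur cluster (-0.23 ± 0.11), were the other core subunits with an unadjusted p under 0.05 (adjusted p = 0.671 and 0.614). The Ndufv2 value held for the probe set used, with a mean level of 11.09. Other Ndufv2 probe sets, at mean levels of 11.06 and 10.64, differed by only -0.027 and 0.0034. Ndufv1, the flavin-bearing subunit, differed by -0.11, Ndufs7 by -0.086 and Ndufs8 by -0.057.

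Among accessory subunits, Ndufb10 was at 9.36, 10.09 and 9.70 in the mutant and 9.58, 10.30 and 9.99 in wild type (-0.24 ± 0.046, adjusted p = 0.517). Ndufa9 differed by -0.23 ± 0.082 (adjusted p = 0.563). Both were lower in each pair by an amount well above the spread of the 3 differences. At the other end Ndufa2 had a difference of -0.0034. Ndufb11 and Ndufa1, accessory subunits named for their high signal, differed by -0.028 ± 0.099 and -0.12 ± 0.15. Other Ndufb11 probe sets differed by -0.011 and -0.19. Ndufa4 (-0.091 ± 0.074), named for complex I but known as a subunit of complex IV, and its hypoxia-induced relative Ndufa4l2 (-0.19 ± 0.046, adjusted p = 0.631) were lower in all 3 pairs.

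The 8 complex I assembly factors had a median of -0.072, with 3 lower in all 3 pairs. Ndufaf6 rested on 1 pair: it was at 6.02, 6.82 and 6.41 in the mutant and 6.78, 6.78 and 6.39 in wild type. The pairs differed by -0.76, 0.047 and 0.027 in the order of their numbers. Ndufaf4 was the only complex I member with a mean difference above 0 (0.0072 ± 0.19).

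Complex II, the smallest complex and the one shared with the citric acid cycle, had the lowest median of the 5. All 8 members had a mean difference below 0 and 6 were lower in all 3 pairs, with a median of -0.23 and pair medians of -0.23, -0.13 and -0.28. At the probe sets used, the 4 subunits were lower in every pair, with a median of -0.29. Their pair medians were -0.43, -0.17 and -0.28, so that pair 1 was the lowest. Pair 1 had the widest Gapdh gap within each genotype (2.57 in the mutant and 2.28 in wild type). The gaps of mutant and wild type lay further apart in pair 3 (0.51 and -0.045). The part of the gap in these differences was not tested. Differences between complexes were not tested, and complex II holds only 4 subunits.

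Sdhd, a membrane anchor of the complex, was at 8.65, 10.90 and 10.36 in the mutant and 9.18, 11.13 and 10.78 in wild type. The difference of -0.39 ± 0.15, or 0.762 times the wild-type level, did not pass (adjusted p = 0.381 paired, 1 unpaired, 95% interval -0.61 to -0.18). A second Sdhd probe set differed by only -0.040. Sdhc, the other anchor, was at 8.90, 10.37 and 10.11 in the mutant and 9.34, 10.58 and 10.39 in wild type (-0.31 ± 0.11, adjusted p = 0.449), and its second probe set differed by -0.20.

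Sdhb, the iron-sulfur subunit, was at 10.16, 11.23 and 10.90 in the mutant and 10.58, 11.37 and 11.11 in wild type (-0.26 ± 0.15, adjusted p = 0.604). Sdha, the flavoprotein that oxidises succinate, was at 9.94, 10.95 and 10.76 in the mutant and 9.98, 11.08 and 11.03 in wild type (-0.15 ± 0.12, adjusted p = 0.745). A second Sdha probe set, at a mean level of 9.86, differed by only -0.030, with pairs 1 to 3 at 0, -0.13 and 0.039. Dimmer Sdha probe sets differed by 0.083 and -0.043. At the probe sets used, the mutant was the lower array of each pair for all 4 subunits. The groups overlapped because the pairs differed from each other by more. Of the assembly factors, Sdhaf1 differed by -0.63 in pair 1 but by -0.11 and -0.0051 in the others (mean -0.25 ± 0.34), Sdhaf2 by a mean of -0.21 ± 0.21, Sdhaf4 by -0.062 ± 0.22 and Sdhaf3 by -0.0039 ± 0.27.

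**Figure D3:**
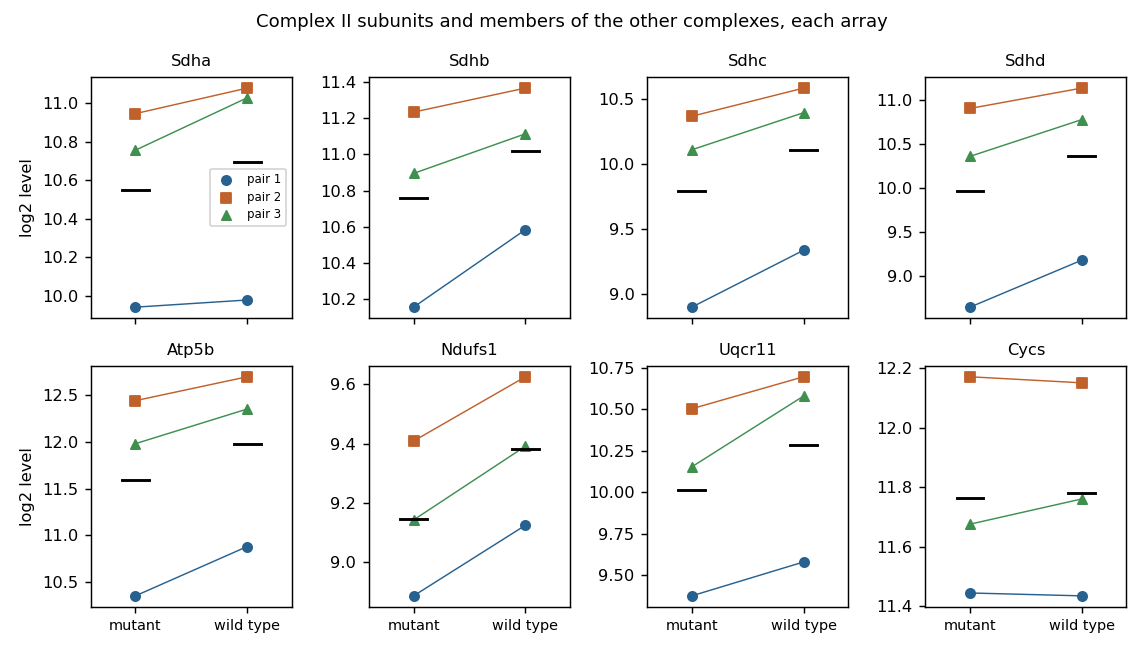
Log2 level on each array (vertical axis, a separate scale for each gene) of the 4 complex II subunits, Atp5b, Ndufs1, Uqcr11 and Cycs. The last 4 are from complexes V, I and III and the carrier cytochrome c. Mutant is left and wild type right, with lines joining same-numbered pairs and bars at the means of 3 arrays. The lines of Sdha, Sdhb, Sdhc, Sdhd, Atp5b, Ndufs1 and Uqcr11 run the same way in all 3 pairs, whereas Cycs is nearly level.

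Complex III followed complex II in the size of its median. All 9 subunits had a mean difference below 0 and 7 were lower in all 3 pairs, with a median of -0.19. With cytochrome c the 10 members had a median of -0.19 and pair medians of -0.11, -0.15 and -0.29, and the median was -0.12 without pair 3. Uqcr11, a small accessory subunit, was at 9.37, 10.50 and 10.15 in the mutant and 9.58, 10.70 and 10.58 in wild type (-0.28 ± 0.13, adjusted p = 0.542). Uqcrq (-0.23 ± 0.071, adjusted p = 0.549) and Uqcr10 (-0.24 ± 0.14, adjusted p = 0.631), further small subunits, were also lower in every pair.

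Uqcrh (-0.16 ± 0.086) and Uqcrb (-0.16 ± 0.079), small subunits with high levels, were lower in all 3 pairs as well. Uqcrc2, a core protein, was at 10.79, 10.76 and 10.21 in the mutant and 10.79, 10.69 and 10.36 in wild type, and was close to equal (-0.031 ± 0.11), but its second probe set differed by -0.24. Cycs, the mobile electron carrier cytochrome c, was at 11.44, 12.17 and 11.68 in the mutant and 11.43, 12.15 and 11.76 in wild type. Its difference of -0.018 ± 0.058 had a 95% interval of -0.19 to 0.15, and its 3 other probe sets differed by -0.17 to -0.028.

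Complex IV held the 2 largest differences of all members, those of Cox7a1 and Cox8b. Of 25 members, 22 had a mean difference below 0 and 9 were lower in all 3 pairs, with a median of -0.096 and pair medians of -0.016, -0.083 and -0.20. Without pair 3 the median was -0.042. All 9 were among the 17 subunits, which had a median of -0.14. None of the 8 assembly factors was lower in all 3 pairs (median -0.031), and in pair 2 only 1 of them was lower.

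Several complex IV subunits exist in a general form and in one restricted to certain tissues. Cox7a1, the form of subunit VIIa known from heart, skeletal muscle and brown fat, was at 6.03, 6.49 and 6.46 in the mutant and 6.77, 7.51 and 7.81 in wild type. All 3 mutant arrays lay below all wild-type arrays, and the mutant level was 0.489 times that of wild type. The difference of -1.03 ± 0.31 had the smallest p of any member but did not pass (adjusted p = 0.143 paired and 1 unpaired, within 0.0520 to 1 over its 10 alternatives, 95% interval -1.35 to -0.71). Cox7a2, the general form, was at 11.79, 12.53 and 12.37 in the mutant and 11.83, 12.71 and 12.67 in wild type (-0.17 ± 0.13, adjusted p = 0.730).

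Cox8b, the muscle and brown fat form of subunit VIII, was at 5.95, 6.98 and 6.02 in the mutant and 5.96, 7.95 and 7.79 in wild type. Pairs 1 to 3 differed by -0.0090, -0.97 and -1.77, so that the mean of -0.92 ± 0.88 (adjusted p = 0.643) was -0.49 without pair 3 and -1.37 without pair 1. Cox8a, the general form, was at 11.35, 12.36 and 12.16 in the mutant and 11.57, 12.55 and 12.45 in wild type (-0.23 ± 0.051, adjusted p = 0.537). The table does not say whether the signals of Cox7a1, Cox8b and the other restricted forms exceed background, which leaves the size of their folds uncertain.

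The other restricted forms had mean differences closer to 0 than Cox7a1 and Cox8b. Cox6a2, also of heart and skeletal muscle, differed by 0.021 ± 0.14, and Cox4i2, known from lung and pericytes, by 0.040 ± 0.13. Cox6b2 (-0.12 ± 0.096) and Cox7b2 (-0.0093 ± 0.097), both known from testis, did not pass either. The Cox7b2 probe set had a mean level of only 3.74, at the 5.44 percentile of all probe sets, where a lower level in the mutant might not be seen. The general counterparts Cox6a1 (-0.14 ± 0.12), Cox4i1 (-0.18 ± 0.023) and Cox6b1 (-0.084 ± 0.11) did not pass, and Cox4i1, at 11.60, 12.42 and 12.11 in the mutant and 11.77, 12.58 and 12.31 in wild type, had nearly equal differences in the pairs. Cox7a2l, which joins complexes III and IV into supercomplexes, differed by 0.025 ± 0.025.

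**Figure D4:**
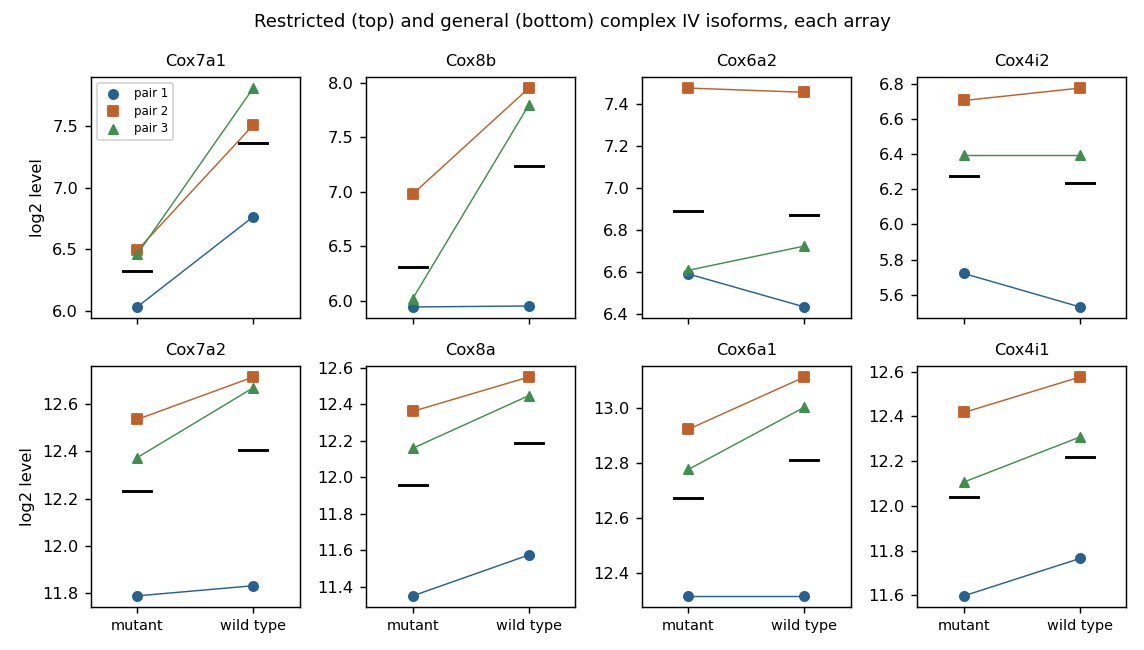
Log2 level on each array (vertical axis, a separate scale for each gene) of restricted complex IV isoforms (top row) and their general counterparts (bottom row), mutant left and wild type right, with lines joining same-numbered pairs and bars at the means of 3 arrays. Cox7a1 is lower in the mutant of every pair by -0.73 to -1.35, and Cox8b differs in pairs 2 and 3 but not in pair 1.

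Cox7a1 and Cox8b are also expressed by muscle and brown fat, whose markers were followed for that reason. Of 15 skeletal muscle markers 1 was lower and 1 higher in all 3 pairs, with a median difference of -0.049 and a summed linear level of 631 to 1100 in the mutant and 596 to 1167 in wild type. The 8 heart muscle markers had a median of -0.0017 (sums of 291 to 493 in the mutant and 284 to 497 in wild type), with 0 lower or higher in all 3 pairs. The 5 of 7 adipocyte markers that were measured had a median of 0.026 (269 to 481 in the mutant and 209 to 483 in wild type), with the brown fat gene Ucp1 at 1.10, -0.11 and -0.24 in pairs 1 to 3. No marker of these lists passed, and values of this kind have no 0. Their part in the result was not tested.

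Complex V genes were lower by about as much as those of complex I. Of 17 members, 16 had a mean difference below 0 and 11 were lower in all 3 pairs, with a median of -0.12 and pair medians of -0.088, -0.092 and -0.26. The 5 subunits of the catalytic F1 head had a median of -0.12, and the 12 members of the membrane part and stalk -0.13. Atp5b, the catalytic beta subunit, had the largest difference of the complex.

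Atp5b was at 10.35, 12.44 and 11.98 in the mutant and 10.88, 12.69 and 12.35 in wild type. The mutant was the lower array of each pair, at 0.766 times the wild-type level on average, without passing (-0.38 ± 0.14, adjusted p = 0.369, 95% interval -0.59 to -0.18). Atp5c1, the central stalk subunit gamma (-0.24 ± 0.13, adjusted p = 0.621), and Atp5o, which ties the head to the outer stalk (-0.20 ± 0.087, adjusted p = 0.654), were lower in every pair too. Atp5d, another central stalk subunit, differed by 0.0085 ± 0.063, with a second probe set at -0.25. Atp5a1, the alpha subunit, differed by -0.063 at the probe set used and by -0.30 at another of nearly the same level; it was named after its values were seen.

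The proton-carrying c ring is encoded by 3 genes that make the same mature protein. Atp5g3 was at 12.18, 13.06 and 12.80 in the mutant and 12.30, 13.21 and 12.97 in wild type (-0.15 ± 0.029). Atp5g2 differed by -0.11 ± 0.015 and Atp5g1 by -0.15 ± 0.095, and all 3 were lower in every pair with none passing (adjusted p = 0.728, 0.750 and 0.737). Atp5g1 had a second, dim probe set that was higher in every pair (0.33). Atp5h, a subunit of the outer stalk, was nearly equal at the probe set used (-0.024 ± 0.090). Its second probe set, at a mean level of 11.73 against 12.05, differed by -0.17 and was lower in every pair.

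**Figure D5:**
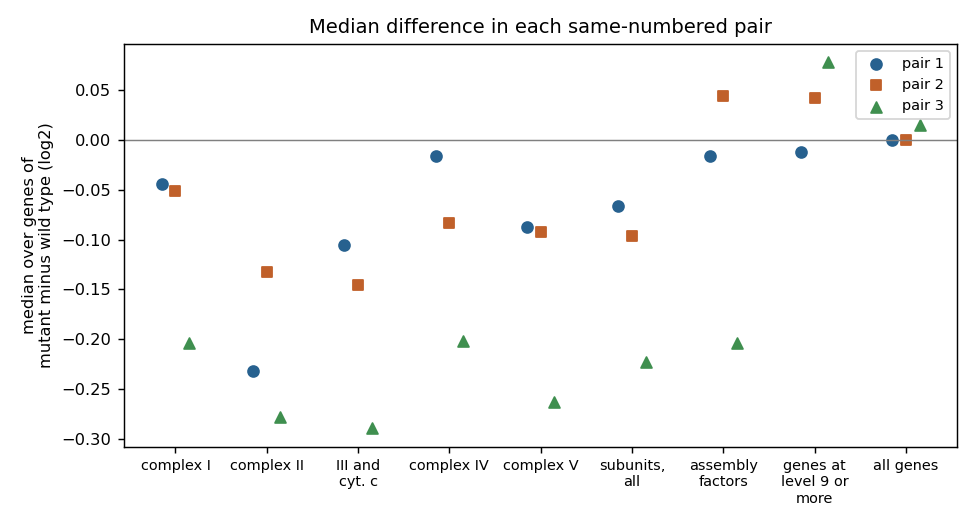
Median over genes of the difference (mutant minus wild type, log2, vertical axis) in each same-numbered pair, for the 5 complexes, for subunits and assembly factors, for all genes with a mean level of at least 9 and for all genes. The 5 complexes lie below 0 in every pair and lowest in pair 3, while assembly factors lie above 0 in pair 2.

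Across complexes, subunits and assembly factors differed in these counts. Of the 84 subunits and cytochrome c, 51 were lower in all 3 pairs, with a median of -0.14 and pair medians of -0.066, -0.097 and -0.22. Of the 20 assembly factors, 5 were lower in all 3 pairs, with a median of -0.048 and pair medians of -0.017, 0.044 and -0.20. All 19 members with an unadjusted p under 0.05 were subunits. The difference between these 2 sets was not tested.

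Probe sets of the same gene mostly had the same direction. The members had 208 probe sets, of which 191 were lower on average, and of 60 members with several, 45 had all of them lower, 14 had both directions and Cox6a2 had both higher. For 37 members the 2 best expressed probe sets both had a mean level of at least 9. All 37 were lower by the second, with a median of -0.17, and 35 by the first, with a median of -0.10. The second was the more negative in 24 of 37 (64.9%), against 61.5% of all 954 genes with 2 such probe sets. Another 11 probe sets carry a symbol of these families together with another symbol and were left out, and 8 of them were lower.

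Of the subunits encoded by mitochondrial DNA, 1 of 13 was measured. ND5, of complex I, was at 12.10, 13.17 and 12.89 in the mutant and 12.06, 13.38 and 12.71 in wild type, with no common direction (-0.00075 ± 0.20, adjusted p = 0.999).

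Other gene lists around the respiratory chain had medians closer to 0, and none of their genes passed in either direction. Of 28 measured assembly factors with other names, 2 were lower and 2 higher in all 3 pairs, with a median of -0.041. Tmem70, needed for ATP synthase assembly, differed by -0.19 and Acad9, needed for complex I assembly, by 0.25 (adjusted p = 0.750 and 0.724), while the best expressed, Uqcc2 and Coa5, differed by -0.050 and 0.098. Of 16 carriers, channels and couplers that move or buffer ATP, 7 were lower and 0 higher in all 3 pairs (median -0.090). These included Slc25a3, the phosphate carrier (-0.14 ± 0.018), and Vdac2, an outer membrane channel (-0.20 ± 0.070, adjusted p = 0.631). Slc25a4, an adenine nucleotide carrier, differed by -0.086 ± 0.12 and Ckmt1, a mitochondrial creatine kinase, by -0.16 ± 0.080.

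Coenzyme Q genes had 4 of 12 lower and 0 higher in all 3 pairs (median -0.042). Coq10a (-0.35 ± 0.26) and Coq10b (-0.36 ± 0.43), coenzyme Q binding proteins, had the smallest p (adjusted p = 0.592 and 0.730), and Coq2 and Coq9, of its synthesis, differed by -0.062 and -0.14. Markers of mitochondrial mass and protein import had 6 of 18 lower and 3 higher (median -0.010). Immt, which organises the cristae, differed by -0.30 ± 0.20 and Hspa9, the matrix chaperone, by -0.21 ± 0.15, whereas Tomm20 (0.039 ± 0.034), the import receptor, and Hspe1 (0.053 ± 0.13), a folding chaperonin, were close to 0. The 18 regulators of mitochondrial biogenesis had 1 lower and 3 higher, with a median of 0.0084.

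Ppargc1a, the coactivator PGC-1 alpha, was at 6.98, 7.92 and 6.28 in the mutant and 7.68, 7.91 and 7.51 in wild type. It was lower in pairs 1 and 3 and differed by 0.0042 in pair 2 (-0.64 ± 0.62, adjusted p = 0.659). Esrrg, a related receptor, differed by -0.19 ± 0.17, and Ssbp1 (0.13 ± 0.043) and Yy1 (-0.042 ± 0.22), the best expressed regulators, did not pass either.

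Most markers of the strial cell types were also lower in the mutant. In these bulk samples fewer cells of a type and less RNA per cell cannot be told apart. Of 11 measured marginal cell markers, 8 were lower and 0 higher in all 3 pairs, with a median of -1.05 and a summed linear level of 5172 to 9064 in the mutant and 10846 to 19561 in wild type. Kcne1, Kcnq1, Slc12a2 and Atp13a5 fell in the paired fit, and Bsnd, Atp1b2 and Hmx2 were lower in all 3 pairs without passing. The others changed little: Lrp2 by -0.062, Wnk2 by 0.0083, Shroom3 by -0.061 and Esrrb, the targeted gene, by -0.072. Intermediate cell and melanocyte markers had 9 of 12 lower and 0 higher (median -0.63, sums of 6456 to 10902 in the mutant and 8882 to 17286 in wild type). Basal cell markers had 4 of 6 lower and 0 higher (median -0.28, sums of 9196 to 19544 in the mutant and 14990 to 29413 in wild type), and Gjb6 fell. Their part in the difference of the respiratory chain genes was not tested.

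Markers of the remaining cell types had smaller or opposite medians, and none passed. Pericyte and smooth muscle markers had 2 of 10 lower and 1 higher in all 3 pairs (median -0.098, sums of 3606 to 6620 in the mutant and 3777 to 6662 in wild type). Endothelial markers had 3 of 8 lower and 0 higher (-0.20, 1633 to 4535 in the mutant and 2097 to 4718 in wild type). Neuron markers had 0 of 10 lower and 7 higher (0.59, 886 to 2403 in the mutant and 781 to 1135 in wild type), with pair medians of 1.06, 0.32 and 0.24. Among 8 macrophage markers 0 were lower and 2 higher (0.12, 3714 to 8552 in the mutant and 3717 to 6616 in wild type). Erythroid markers, of which 3 of 6 were measured, had 2 lower and 0 higher (-0.26, 182 to 460.3 in the mutant and 200.1 to 762 in wild type). Cartilage and bone markers had 0 of 6 lower or higher (0.075, 14182 to 43941 in the mutant and 15151 to 42032 in wild type), and hair cell markers 1 of 6 lower and 1 higher (0.096, 311 to 652 in the mutant and 303 to 572 in wild type).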

How the data were processed

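The authors deposited log2 expression values per probe set for 6 arrays, and the submitters' processing notes name RMA without a version. The values, from 2.33 to 14.6, fit that log2 scale. Of 45101 probe sets, 64 controls were removed and all others were kept whatever their level. In the platform annotation 34945 had 1 gene symbol, 932 several and 9160 none. Differences were tested with limma 3.58.1 in R 4.3.3 (lmFit, eBayes, two-sided, Benjamini-Hochberg adjustment) with the replicate number of the labels as a block. Same-numbered arrays deviated together from their genotype means (correlations of 0.879, 0.818 and 0.746 for pairs 1 to 3, all over 0.1). Whether the pairs were normalized separately is not stated, and this could produce such correlations too. Precision is limited by the 6 arrays: the paired fit has 2 residual degrees of freedom. On simulated data with 45037 probe sets the paired fit recovered 77 of 100 probe sets changed by 1 (log2). It recovered 99 of 100 changed by 2, with 8 false calls. Changes as small as the members' median of -0.12 and exactly equal values were not simulated, so recovery of such changes is not known.

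Members and gene lists were chosen with earlier results of these data known. Named were any member that passed, in each complex the 4 with the smallest p, the 2 with the highest level and the 2 with the largest rise, the tissue isoforms and the 4 members with the widest spread between pairs. From each other list, genes that passed, the 2 with the smallest p and the 2 with the highest level were eligible. Other genes named were chosen after their values were seen. Marker sums add linear levels. Promoter sequences and coordinates are from RefSeq, GRCm38.p6.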

Additional observations from a re-analysis of the deposited data

How the results depend on the processing

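The alternatives were the fit without the replicate block, quantile normalization or median centring of all arrays, and minimum mean levels of 6 or 9. Others were leaving out each replicate number, eBayes with trend and robust options, and averaging all probe sets that carry a gene's symbol. The last left out probe sets whose names end in _x_at, _s_at or _a_at, which can match several transcripts or genes. No member passed under any alternative. The number of members lower in every pair ran from 47 (of the 80 with a mean level of at least 9) to 72. It was 59 to 72 (of 104, both remaining pairs) when a replicate number was left out. The share of all genes lower in every pair moved as well. It was 9.03% in the main fit, 12.2% at a mean level of at least 9, 16.3% with quantile normalization and 16.0% with median centring. Without replicates 1, 2 and 3 it was 26.2%, 15.2% and 17.1%. The median of all members stayed below 0, between -0.16 and -0.072, as did those of the 5 complexes. The count of all probe sets that passed, 42 with the block, was 3 with no replicate block, 0 at a mean level of at least 9 and 0 to 7 when a replicate number was left out. Without the block 1 member had an unadjusted p under 0.05, against 19 with it. With 3 arrays a genotype, calls therefore depend on the pairing.

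Some members changed sign. With quantile normalization Cox7b2 was at 0.0023, Ndufaf4 at -0.0074 and Sdhaf3 at 0.029, and with median centring Cox7b2 was at 0.0038, Ndufa2 at 0.0098 and Sdhaf3 at 0.0092. Averaging probe sets gave -0.12 for Atp5d, 0.087 for Atp5g1 and -0.055 for Cox7a2l. Without the probe sets of those name endings Atp5g1 was at 0.33, its remaining dim probe set. Leaving out a replicate number gave -0.010 to 0.045 for Atp5d, -0.064 to 0.025 for Atp5h, -0.035 to 0.095 for Cox4i2, -0.048 to 0.088 for Cox6a2 and -0.042 to 0.046 for Cox7b2. It gave -0.038 to 0.015 for Cycs, -0.045 to 0.057 for Ndufa2, -0.078 to 0.11 for Ndufaf4, -0.37 to 0.037 for Ndufaf6 and -0.061 to 0.029 for Ndufb11. For Sdhaf3 it gave -0.15 to 0.12, for Sdhaf4 -0.16 to 0.057 and for Uqcrc2 -0.079 to 0.030. The cause of these changes was not tested.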
